A study of Homo sapiens with 60 samples.

Results

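Expression of 10 genes for liver-made proteins of blood clotting was followed across HepG2 cells treated with herbal extracts. The genes are F2, F5, F7, F9, F10, F11, F12, F13B, PROC and SERPINC1, taken from the rows of the deposited count table by their Ensembl identifiers, 10 of 60675 genes in all. They were listed as hepatic coagulation factors and inhibitors. The rule uses no measured value, but the list was drawn up with earlier results of these data known. HepG2 is a long-established human liver cancer cell line that keeps the secretory program of hepatocytes. Of the 10 genes, 9 passed the filter on low counts and were tested, and F9 did not.

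The cells were exposed for 24 h to 1 of 8 extracts or to DMSO as vehicle, giving 60 messenger RNA libraries in 25 groups. The doses were 20 µg/mL (Low), 100 µg/mL (Medium) and 500 µg/mL (High). Water was used to extract the multi-herb formulas Sibjeondaebo-tang (SDT) and Palmul-tang (PMT). Ethanol was used for the single herbs Poria Cocos (Poria), Atractylodis Rhizoma (Atractylodis), Glycyrrhizae Radix (Glycyrrhiza), Panax Ginseng (Ginseng), Angelicae Gigantis Radix (Angelica) and Paeoniae Radix (Paeonia). Each group held 3 libraries, except that PMT had 2 per dose and Angelica and Paeonia had 1 per dose. Vehicle is 0.1% DMSO by the sample labels but 2% by the series text. The labels carry a set code under which vehicle shares no code with any extract, so that set and treatment cannot be told apart in a comparison with vehicle, whereas the doses of an extract share 1 code. Nothing in the labels says whether replicates are separate cultures, so the p-values measure the spread between these libraries, which may be technical. All cells are of 1 line, and only messenger RNA was measured, not protein or clotting activity.

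Total counts ran from 19057227 to 33233238 per library, and from 27390864 to 29913436 in vehicle. The common coefficient of variation between replicates was 5.63%. All 12 hepatocyte markers examined, among them ALB, AFP and APOB, were expressed, with a summed level of 46344 to 65881 CPM, counts scaled to the size of the library. The summed level of 8 endothelial markers was 1.98 to 3.92 CPM. Among blood cell markers, PTPRC, MS4A1, PF4, PPBP and GP9 had 0 counts in every library. Others of the same lists were expressed, with LYZ at 848 to 1994 CPM, CD68 at 52.2 to 167 and TUBB1 at 0.982 to 26.5. The summed level was 998 to 2080 CPM for 8 leukocyte markers and 1.3 to 26.9 for 6 megakaryocyte and platelet markers. For 7 fibroblast markers it was 41.6 to 79.3 CPM.

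Clotting proceeds as a chain of proteases in the plasma, each made by the liver as an inactive precursor. Factor VII (F7), bound to tissue factor, starts the chain. Factors XII (F12), XI (F11) and IX (F9) belong to its intrinsic arm. Factor X (F10) with its cofactor factor V (F5) turns prothrombin (F2) into thrombin, which cleaves fibrinogen. Factor XIII, whose carrier subunit is F13B, crosslinks the fibrin. Protein C (PROC) inactivates factor V, and antithrombin (SERPINC1) inhibits thrombin and factor X. F2, F7, F9, F10 and PROC need vitamin K for their maturation. In hepatocytes many of these genes are known targets of the liver transcription factors HNF4 and HNF1.

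The promoters of 4 genes, F7, F10 and F13B for their response and F9 for its near absence, are shown to place them beside the values that follow. SERPINC1 also stood out for its response, but no promoter entry was available for it. The sequences are from RefSeq on GRCh38.p14, from 150 bases before the start site to 10 after it, 5′ to 3′ on the gene's strand. Capitals mark the HNF4 core letters CAAAGT or the HNF1 letters GTTAAT, read on either strand.
F7, chr13:113105641-113105800, plus strand: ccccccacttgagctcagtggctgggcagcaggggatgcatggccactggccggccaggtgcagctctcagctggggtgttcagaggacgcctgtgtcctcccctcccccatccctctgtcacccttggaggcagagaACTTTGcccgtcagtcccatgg
F10, chr13:113122649-113122808, plus strand: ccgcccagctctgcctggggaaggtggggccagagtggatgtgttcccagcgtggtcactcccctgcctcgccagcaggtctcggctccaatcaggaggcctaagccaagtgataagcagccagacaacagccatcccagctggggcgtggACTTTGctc
F9, chrX:139530589-139530748, plus strand: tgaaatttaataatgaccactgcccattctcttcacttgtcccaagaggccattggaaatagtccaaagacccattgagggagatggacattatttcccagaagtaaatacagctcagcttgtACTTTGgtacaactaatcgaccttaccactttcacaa
F13B, chr1:197067251-197067410, minus strand: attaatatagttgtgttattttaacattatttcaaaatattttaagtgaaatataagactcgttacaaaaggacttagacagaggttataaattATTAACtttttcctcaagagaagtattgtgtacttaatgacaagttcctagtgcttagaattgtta

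The motif search covered 250 bases before to 50 after the start site, on both strands, in the 9 member genes with an entry. SERPINC1 had none. CAAAGT was found in F7, F9 and F10, and in 11.9% of all 35116 promoters. In F7 it lay from position -12 to -7, counted with the start site as 0. The longer form CAAAGTCCA, which contains CAAAGT, was found in F10 and in 0.384% of all promoters. GTTAAT was found in F2, F13B and PROC, and in 6.88% of all promoters. The C/EBP letters TTGCNNAA were found in PROC (10.5% of all promoters), while TGTTTNC (17.99%), the FOXA letters, and TGATGNAA (3.62%), a C/EBP-ATF element, were in none of the 9. A match describes letters only.

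In vehicle the 10 genes covered a wide range of levels. Per kb of exon, F2 stood highest at 86.4 ± 5.23 CPM per kb (SD, n = 3), followed by SERPINC1 at 69.7 ± 3.74. F5 and PROC, at 23.7 ± 1.13 and 23.7 ± 1.5, were not separable, and F10 followed at 14.1 ± 0.874 and F11 at 12.4 ± 0.735. The ranges of F2 and SERPINC1 did not overlap, and neither did those of F10 (13.6 to 15.1) and F11 (11.8 to 13.2). Low in the order were F7 at 4.81 ± 0.179, F12 at 2.07 ± 0.257 and F13B at 1.57 ± 0.18, whose ranges were also separate. F9 was at the bottom, with any count in 15 of 60 libraries and never more than 2. It had 17 counts in all and 0 in 45 libraries. No library reached the 3 counts that a count of 0 allows, which correspond to 0.0903 CPM in the deepest library and 0.157 CPM in the shallowest. F9 was therefore not detectable at this depth in most libraries, and no comparison was made for it.

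**Figure D1:**
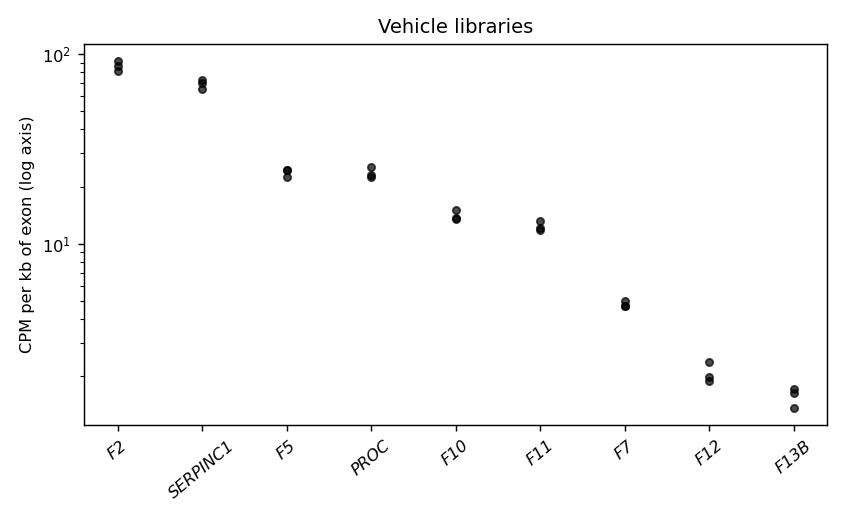
Level of 9 genes in the 3 vehicle libraries, in CPM per kb of exon on a log axis. F2 (86.4) and SERPINC1 (69.7) stand highest, and F9, which was far below the other 9 genes, is not drawn.

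Some of these rows may hold reads of other genes, since the strand setting of the counting is not stated. GRK6 overlaps F12 on the opposite strand at 16.1 to 29.4 CPM, several times the level of F12. F11-AS1 overlaps F11 on the opposite strand at 2.26 to 4.28 CPM. KARS1P2, a pseudogene on the strand of F10, lies within F10 at 0.971 to 3.83 CPM. Reads of such pairs cannot be told apart here.

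The question of dose was addressed within each extract by High against Low, where vehicle and its set code play no part. With Glycyrrhiza the genes moved in both directions. Of 9 tested, 4 rose (F7, SERPINC1, F10 and PROC) and 2 fell (F13B and F5), with a median log2 fold change of 0.12 against 0.01 over all genes tested. Of all 16284 genes tested, 56.3% were called in that comparison (28.4% higher, 27.8% lower), so the share of members called, 6 of 9, is near the background. A call is a Benjamini-Hochberg adjusted p under 0.05 from edgeR's quasi-likelihood test over all genes tested, and fold changes are given as log2 values with their standard errors (SE). In these bulk libraries fewer expressing cells and less RNA per cell cannot be told apart.

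F7, the protease that starts clotting, had the largest rise. Its level was 18.3, 20.0 and 18 CPM in the 3 Glycyrrhiza Low libraries, 20.1, 15.9 and 20.1 at Medium, and 51.8, 49.1 and 53.4 at High. The 3 vehicle libraries stood at 17.8, 19 and 17.9 CPM. All 3 High libraries lay above the other 51 replicated libraries, of which the highest held 25.8 CPM. The log2 fold change of High against Low was 1.45 (SE 0.09, adjusted p = 9.93e-18), a 2.73-fold difference.

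SERPINC1, the antithrombin gene, was at 100, 105 and 107 CPM at Low, 106, 101 and 106 at Medium, and 184, 187 and 169 at High. The High libraries again lay above all 51 others, which reached 132 CPM. The log2 fold change was 0.79 (SE 0.05, adjusted p = 7.67e-18). At Low, SERPINC1 was under its vehicle range of 116 to 129 CPM, so that the gene was lower than vehicle at Low and Medium (log2 -0.24 and -0.23, adjusted p = 0.000452 and 0.000453) and higher at High (0.55, adjusted p = 5.01e-13).

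F10, the protease that activates prothrombin, stood at 31.2, 31.3 and 29.7 CPM at Low, at 26.7, 25.4 and 28.2 at Medium, and at 41.7, 39.6 and 47.9 at High. The log2 fold change of High against Low was 0.48 (SE 0.08, adjusted p = 1.01e-06). PROC, the precursor of the anticoagulant protein C, moved less, from 60.6, 62.5 and 59.2 CPM at Low to 70.1, 69.1 and 75.8 at High (log2 0.23, SE 0.06, adjusted p = 0.000751). For both genes the High libraries did not overlap any other replicated library. F2, whose High libraries were at 228, 229 and 248 CPM and Low libraries at 226, 205 and 217, did not pass the test (log2 0.12, SE 0.06, adjusted p = 0.114).

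F13B, the carrier subunit of factor XIII, was at 4.35, 3.61 and 3.73 CPM at Low, 3.70, 4.09 and 3.53 at Medium, and 1.14, 1.83 and 1.66 at High. The 3 High libraries lay below all 51 others, whose lowest held 2.97 CPM. The log2 fold change was -1.34 (SE 0.14, adjusted p = 3.84e-11). F5, the cofactor of factor X, fell in steps, from 202, 206 and 216 CPM at Low to 180, 174 and 176 at Medium and 164, 163 and 143 at High, which is inside or below the vehicle range of 161 to 175. Its log2 fold change was -0.41 (SE 0.07, adjusted p = 1.61e-06) for High against Low and -0.24 (SE 0.07, adjusted p = 0.0417) for Medium against Low, the latter lost when any 1 of the 6 libraries was left out. F11 (-0.02, adjusted p = 0.805) and F12 (-0.17, adjusted p = 0.176) did not pass for High against Low.

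Apart from F5, no member was called between Medium and Low of Glycyrrhiza, a comparison in which 3.56% of all genes were called. F7, for example, had a log2 difference of -0.01 (SE 0.10) between these doses. The changes of F7, SERPINC1, PROC and F13B were thus seen at 500 µg/mL and not detected between 20 and 100 µg/mL. The summed hepatocyte markers moved with this step, from 60287 to 61577 CPM at Low to 46344 to 48466 at High. So did the 6 megakaryocyte and platelet markers, from 13.8 to 14.1 CPM to 1.29 to 2.16, nearly all of it TUBB1. The 8 leukocyte markers, mostly LYZ, were at 1286 to 1383 CPM at Low and 1014 to 1111 at High, the 8 endothelial markers at 3.3 to 3.72 and 1.98 to 2.54, and the 7 fibroblast markers, mostly ACTA2, at 68.4 to 72.1 and 59.3 to 62.1. Their part in the result was not tested.

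**Figure D2:**
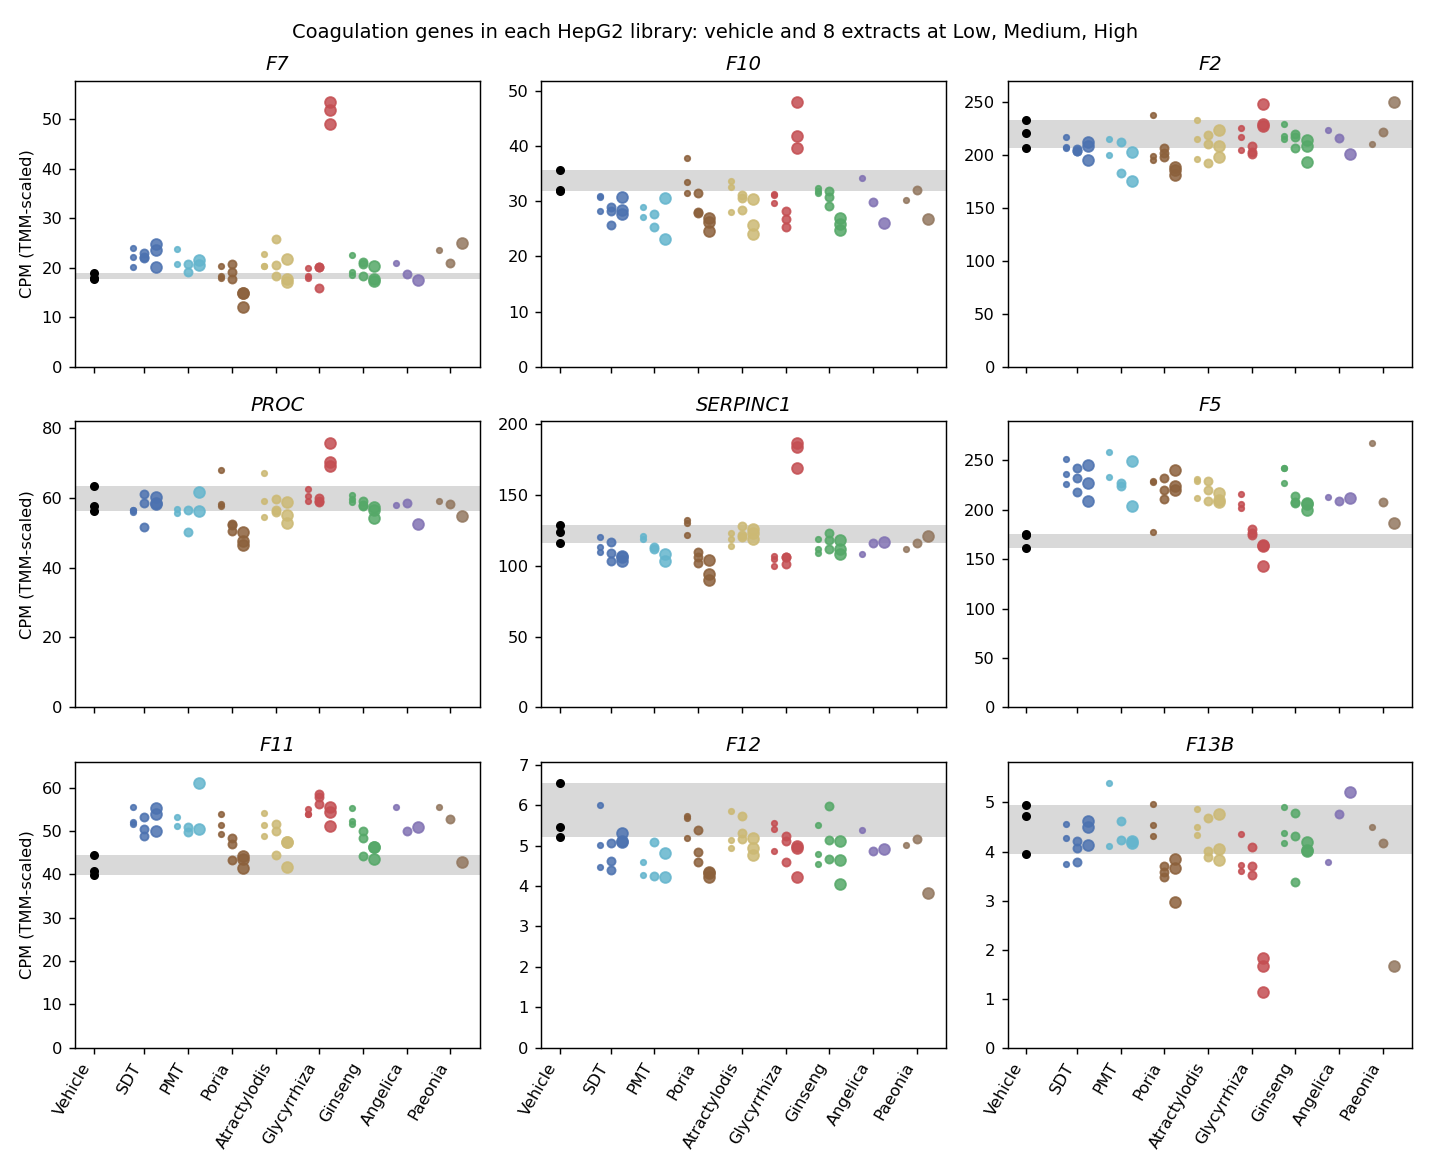
Level of 9 coagulation genes in every library, in CPM on TMM-scaled library sizes, by extract, with points growing from Low to High and the grey band giving the vehicle range. F7, F10, PROC and SERPINC1 are highest and F13B lowest in Glycyrrhiza High among the replicated groups, while F5 and F11 lie above vehicle in most extracts.

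With Poria nearly the whole group was lower at the highest dose. At High, 8 of 9 members were lower than at Low and none was higher, with a median log2 fold change of -0.37 against 0.00 over all genes. Of all genes tested, 38.4% were called in either direction and 18.4% were called lower, so the share of members called lower is above the background. The changes were modest: the called values ran from -0.18 (F2) to -0.44 (F7). The summed hepatocyte markers overlapped between Low (60099 to 64690 CPM) and High (59781 to 64054 CPM), while the leukocyte list, mostly LYZ, was at 1256 to 1352 CPM at Low and 1690 to 1825 at High, and the fibroblast list at 70.7 to 75 and 41.6 to 44.3. The endothelial list was at 2.75 to 3.33 CPM at Low and 2.12 to 2.35 at High, and the platelet list at 5.17 to 14.5 and 11.2 to 26.9. Their part in the result was not tested.

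Among the precursors of the protease chain, F7 went from 18, 18.4 and 20.3 CPM at Low to 14.9, 14.9 and 12 at High (log2 -0.44, SE 0.11, adjusted p = 0.00132). Its 3 High libraries were below all 51 others, of which the lowest held 15.9 CPM. F10 went from 31.4, 33.4 and 37.8 to 24.6, 26.3 and 27.0 CPM (-0.40, SE 0.08, adjusted p = 0.000169). F11 fell by 0.26 on the log2 scale (adjusted p = 0.00107) and F12 by 0.37 (adjusted p = 0.00909). In F10, F11 and F12 no High library reached the Low range.

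Of the inhibitors, SERPINC1 went from 122, 130 and 132 CPM at Low over 102, 110 and 106 at Medium to 90.1, 94.4 and 104 at High, with no overlap between Low and High (log2 -0.41, SE 0.05, adjusted p = 1.19e-08). PROC went from 58.3, 57.7 and 67.9 over 52.1, 50.5 and 52.6 to 47.5, 50.1 and 46.6 CPM (-0.35, SE 0.06, adjusted p = 1.06e-05). Part of the Poria change was present at Medium, where F10, F13B, PROC and SERPINC1 were lower than at Low (4 of 9, against 15.5% of all genes either way and 7.29% lower). That count was 3 or fewer, down to 1, with 1 library left out, and 1 when only the Poria groups were fitted.

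F13B, from 4.96, 4.55 and 4.31 to 2.97, 3.67 and 3.84 CPM, fell by 0.40 (SE 0.13, adjusted p = 0.0133). F2, from 199, 195 and 238 to 186, 189 and 181 CPM, fell by 0.18 (SE 0.06, adjusted p = 0.0209). Both are less firm than the rest. F2 gave -0.09 (adjusted p = 0.318) without Poria Low replicate 3, which stood apart at 238 CPM, and -0.17 (adjusted p = 0.0756) without Poria High replicate 3. F13B gave -0.30 (adjusted p = 0.101) without Poria High replicate 1 and -0.34 (adjusted p = 0.0662) without Poria Low replicate 1. F5 was the member not called, at 228, 229 and 177 CPM at Low and 220, 224 and 240 at High (log2 0.11, SE 0.07, adjusted p = 0.221). Poria Low replicate 3 also stood apart here, low in F5 and high in PROC (67.9 CPM) and F10 (37.8 CPM).

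**Figure D3:**
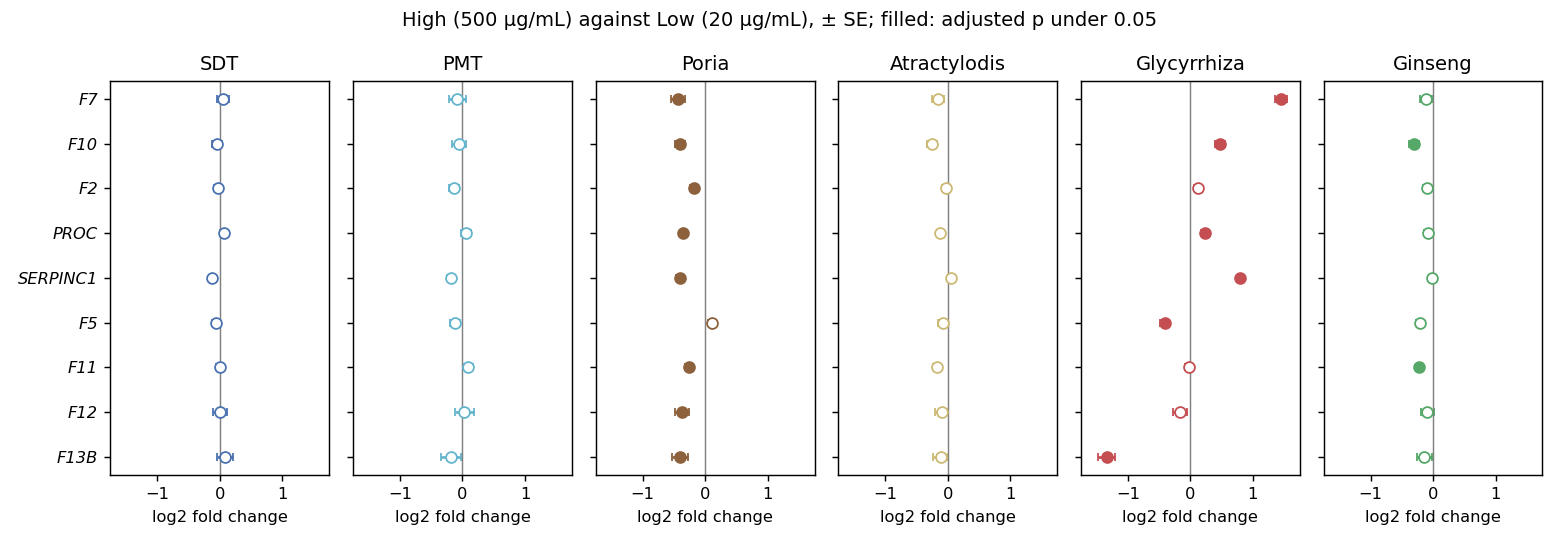
Log2 fold change of High against Low for each gene and each of 6 extracts, with bars of 1 SE and filled points for an adjusted p under 0.05. Glycyrrhiza spans from -1.34 (F13B) to 1.45 (F7), and Poria is negative in 8 called genes. Among the other extracts only Ginseng has filled points, for F10 and F11.

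The dose responses to Glycyrrhiza and Poria differed for most members when the difference itself was tested. Subtracting the Poria change from the Glycyrrhiza change gave 6 positive and 2 negative calls among 9, where 45.6% of all genes were called. The difference was 1.89 (SE 0.15, adjusted p = 8.71e-15) for F7, 1.20 (adjusted p = 3.57e-18) for SERPINC1 and 0.88 (adjusted p = 1.95e-08) for F10. F13B fell more in Glycyrrhiza (-0.94, adjusted p = 8.84e-05), and F12 did not differ detectably (0.20, adjusted p = 0.317). These extracts have different set codes, which the High against Low values within each extract do not cross.

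Among other genes of the clotting system, the fibrinogen chains, PROZ, PROS1 and KNG1 were lower at High in Poria, as most members were. In Glycyrrhiza PROZ rose with F7 and F10, and the others fell, as F13B and F5 did. The 3 fibrinogen chains, the substrate of thrombin, were lower at High in both extracts: FGA by -0.84 in Poria and -0.58 in Glycyrrhiza, FGB by -0.34 and -0.38, and FGG by -0.74 and -0.51 (largest adjusted p = 1.46e-09). FGA went from 2340 ± 17.0 to 1570 ± 35.0 CPM in Glycyrrhiza (SD, n = 3). PROZ, a vitamin K-dependent protein, followed F7 and F10, with 1.00 (adjusted p = 1.89e-13) in Glycyrrhiza and -0.42 (adjusted p = 0.00107) in Poria. PROS1, the cofactor of protein C, was lower in both (-0.53 and -0.25, adjusted p = 1.92e-13 and 2.97e-05). KNG1, the kininogen that carries factor XI and prekallikrein, fell from 11.1 ± 0.863 to 3.56 ± 0.905 CPM in Poria (log2 -1.66, adjusted p = 4.46e-16) and by 0.23 in Glycyrrhiza (adjusted p = 0.0458). KLKB1 was not called in either.

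The counts of the lists that follow stand beside the 38.4% of all genes called in Poria and 56.3% in Glycyrrhiza. Of 10 tested inhibitors of clotting outside the members, 2 rose and 4 fell in Poria, and 1 rose and 7 fell in Glycyrrhiza. In Glycyrrhiza these included SERPINA5, an inhibitor of activated protein C (-0.88, adjusted p = 3.08e-20), HRG (-0.89, adjusted p = 0.0176) and PROCR, the endothelial protein C receptor (0.88, adjusted p = 0.00243). HRG and PROCR rest on low levels. HRG was at 0.557 ± 0.105 CPM at Low and 0.285 ± 0.12 at High, and PROCR at 1.02 ± 0.0895 and 1.91 ± 0.503 (SD, n = 3). PROCR was also higher at High in Poria, at 0.708 ± 0.298 CPM at Low and 1.39 ± 0.37 at High. In Poria TFPI, the inhibitor of the tissue factor pathway, rose by 0.48 (adjusted p = 5.19e-14). Of the 6 fibrinolysis genes reported here, 2 fell in Poria, SERPINF2 (-0.49, adjusted p = 2.77e-12) and PLG (-0.15, adjusted p = 0.0451), and 4 fell in Glycyrrhiza, CPB2, PLAU, PLG and SERPINF2. CPB2, which protects fibrin from lysis, fell from 143 ± 4.38 to 41.0 ± 2.09 CPM in Glycyrrhiza (-1.80, adjusted p = 1.74e-29) and was not called in Poria (-0.12, adjusted p = 0.0636).

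The vitamin K cycle, which recycles the cofactor needed by F2, F7, F9, F10 and PROC, had 2 of 5 genes higher in each extract, with 1 lower in Poria and 2 lower in Glycyrrhiza. NQO1 rose by 1.00 in Poria (adjusted p = 2.71e-21) and 1.25 in Glycyrrhiza (adjusted p = 7.22e-26). AIFM2, a vitamin K reductase, rose by 0.88 in Glycyrrhiza (adjusted p = 3.05e-16). GGCX, the carboxylase itself, was lower in Poria (-0.39, adjusted p = 4.68e-09) and not called in Glycyrrhiza (-0.02, adjusted p = 0.711).

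Among 16 other proteins secreted by hepatocytes, 3 rose and 11 fell in Poria (median -0.22), and 2 rose and 13 fell in Glycyrrhiza (median -0.45). TTPA fell by 1.00 and 1.41 and HPX, the heme carrier, by 0.73 and 1.17 in Poria and Glycyrrhiza. In Poria most members and most of these proteins were lower, and in Glycyrrhiza F7, SERPINC1, F10 and PROC rose where 13 of these 16 fell. The hepatic transcription factors had 3 of 13 higher and 4 lower in Poria, led by NR1H4 (-1.35, adjusted p = 1.62e-23) and CEBPA (-1.13, adjusted p = 2.23e-17). In Glycyrrhiza 3 of 13 were higher and 9 lower, led by CEBPB (1.43, adjusted p = 2.43e-13) and FOXA1 (-0.94, adjusted p = 5.89e-17). HNF4A, named for the letters found in the F7 and F10 promoters and after its values were seen, was at 0.38 in Glycyrrhiza (adjusted p = 7.84e-12) and 0.09 in Poria (adjusted p = 0.0598).

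**Figure D4:**
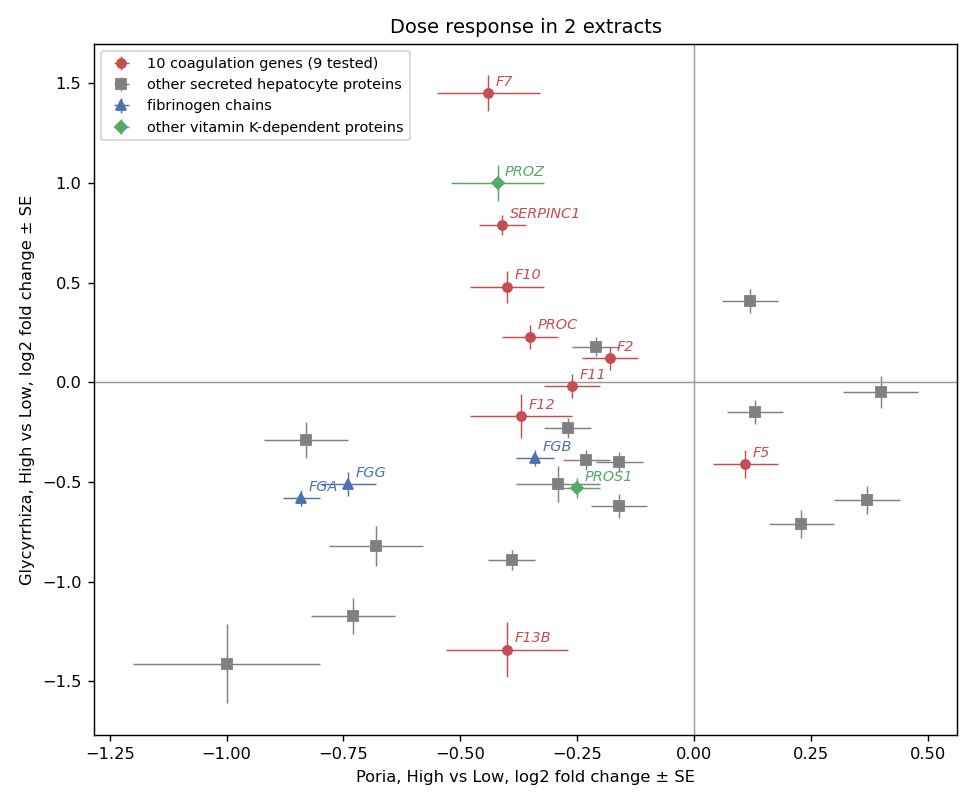
Log2 fold change of High against Low in Poria (horizontal) and Glycyrrhiza (vertical), with bars of 1 SE, for the 9 members and 3 other gene lists. F7, SERPINC1, F10, PROC and PROZ lie at negative values for Poria and positive values for Glycyrrhiza, while the fibrinogen chains are negative in both.

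F7 and F10 are neighbours. On GRCh38 F7 spans chr13:113105788-113120681 and F10 chr13:113122814-113149529, with 2133 bases between them, and PROZ follows 9125 bases further on, all on the plus strand. The genes around them were looked at after the values of F7, F10 and PROZ had been seen. In Glycyrrhiza High against Low, MCF2L upstream of F7 was at 0.13 (adjusted p = 0.107), and downstream of PROZ PCID2 was at 0.27 (adjusted p = 9.62e-06) and CUL4A at 0.33 (adjusted p = 1.38e-08). KARS1P2, inside F10, was at 1.14 (SE 0.18, adjusted p = 8.61e-07). The values of F7 (1.45), PROZ (1.00) and F10 (0.48) were above those of MCF2L, PCID2 and CUL4A, F10 by the least, without a test of these differences. In Poria, F7, F10 and PROZ were at -0.44, -0.40 and -0.42, MCF2L at -0.20 (adjusted p = 0.021), KARS1P2 at -0.04 (adjusted p = 0.916), PCID2 at -0.03 (adjusted p = 0.748) and CUL4A at 0.28 (adjusted p = 2.26e-06).

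With the other replicated extracts few or no members were called over dose. With Ginseng, F10 went from 32.4, 31.4 and 31.8 CPM at Low to 27.0, 25.8 and 24.8 at High (log2 -0.30, SE 0.08, adjusted p = 0.0223). F11 went from 55.2, 51.5 and 52.4 to 43.5, 46.2 and 46.3 (-0.22, SE 0.06, adjusted p = 0.0239). These were 2 of 9 members, where 5.79% of all genes were called. Neither pair of ranges overlapped, but the count was 0 without Ginseng Low replicate 1 or 3 and 1 without any 1 of the Ginseng High libraries. F5 was not called by edgeR, though it stood at 227 to 242 CPM at Low and 200 to 207 at High. It passed at an unadjusted p under 0.05, and DESeq2 called F5, F10 and F11.

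Over the same doses no member was called by edgeR in SDT, PMT or Atractylodis, where 1.04%, 0.516% and 6.41% of all genes were called. At an unadjusted p under 0.05 the count was 1 in SDT and 1 in PMT, SERPINC1 in both (log2 -0.12 and -0.19, adjusted p = 0.352 and 0.261), and DESeq2 called none in either. In Atractylodis the unadjusted count was 2, F10 (-0.25, adjusted p = 0.0624) and F11 (-0.17, adjusted p = 0.0848), and DESeq2 called 1, F10. Between SDT and PMT at High, and for the difference between the dose responses to Atractylodis and Ginseng, edgeR called no member and 0% of all genes, the unadjusted count of members was 0 and DESeq2 called 0.

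At High, the extracts that share a set code were compared with each other. Poria was lower than Atractylodis in F2, F7, PROC and SERPINC1, 4 of 9 against 30.5% of all genes either way and 14.4% lower. F2 and PROC lost their calls without Poria High replicate 3 (adjusted p = 0.101 and 0.0518) or Atractylodis High replicate 3 (0.182 and 0.0765), and F2 also without Poria High replicate 1 (0.0527). Glycyrrhiza differed from Ginseng in 8 of 9 members, 6 higher and 2 lower, where 56.9% of all genes were called. F10, for example, was at 41.7, 39.6 and 47.9 CPM in Glycyrrhiza High and at 27.0, 25.8 and 24.8 in Ginseng High (log2 0.73, adjusted p = 1.19e-10).

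Against vehicle, 2 genes of the chain were higher with every extract already at the lowest dose. F5 was at 174, 161 and 175 CPM in vehicle, and at 177 to 258 CPM (median 229) in the 17 Low libraries of the 6 replicated extracts, all 17 of them above every vehicle library. F11 was at 40.7, 39.8 and 44.5 CPM in vehicle and at 48.8 to 55.6 CPM (median 52.4) at Low, again in 17 of 17 libraries. The log2 differences at Low ran from 0.30 (Glycyrrhiza, adjusted p = 0.000859) to 0.54 (PMT, adjusted p = 1.11e-06) for F5 and from 0.31 (Poria, adjusted p = 0.000375) to 0.39 (Glycyrrhiza, adjusted p = 5.32e-06) for F11. The share of all genes called in Low against vehicle was 19.2% in Poria, 26.9% in Atractylodis, 29.7% in Glycyrrhiza, 31.1% in PMT, 33.4% in Ginseng and 35.9% in SDT. In each of these comparisons 2 or 3 of the 9 members were called, which is near that background.

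Over the 18 comparisons with vehicle, F5 was called higher in 16 and F11 in 15. F5 lost the difference in Glycyrrhiza at Medium and High, and F11 lost it at High in Poria (0.06, adjusted p = 0.474), Atractylodis (0.13, adjusted p = 0.0938) and Ginseng (0.13, adjusted p = 0.0954). F10 was lower in 7 and higher in 1, that 1 being Glycyrrhiza High. F12 was lower in 6 and higher in none, but 5 of those 6 calls were lost without Vehicle replicate 2, which stood at 6.55 CPM against 5.46 and 5.21 in the other vehicle libraries (Glycyrrhiza High, for example, gave -0.17, adjusted p = 0.188). Poria High was the call left. At Medium, the share of all genes called against vehicle was 36% in SDT, 29.7% in PMT, 38.6% in Poria, 28.3% in Atractylodis, 34.9% in Glycyrrhiza and 29.9% in Ginseng. The 18 comparisons share the same 3 vehicle libraries, so they are not independent of each other. The share of counts from the mitochondrial genome was 13.4% to 15.2% in vehicle and 14.7% to 24.8% in the treated replicated libraries. Its part in these differences was not tested. With those genes left out, 106 of 107 member calls over all 31 comparisons remained. That step changes only the genes counted and the scaling, so it cannot decide the question.

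At High against vehicle, Glycyrrhiza had 5 members higher and 2 lower (61.3% of all genes called) and Poria 1 higher and 7 lower (51.1% called). SDT had 3 higher and 1 lower (34.2%), PMT 2 higher and 4 lower (29.2%), Atractylodis 1 and 1 (34%), and Ginseng 1 and 2 (36.3%). The 2 PMT High libraries stood apart, at 176 and 203 CPM in F2 and 23.1 and 30.6 in F10. Without PMT High replicate 2, which leaves 1 library, the log2 differences from vehicle were -0.12 for F2, -0.11 for F10 and -0.25 for F12. F7 was higher in SDT at all 3 doses (log2 0.28 at Low, 0.30 at Medium and 0.33 at High, largest adjusted p = 0.0256). Each of these calls was lost with 1 library left out: at Low without Vehicle replicate 1 (adjusted p = 0.0824) or 3 (0.0632) or SDT Low replicate 2 (0.057) or 3 (0.16), at Medium without Vehicle replicate 1 (0.0638) or SDT Medium replicate 2 (0.0565), and at High without SDT High replicate 1 (0.0933). SERPINC1 was lower in SDT High and PMT High by the same amount (-0.22, adjusted p = 0.000776 and 0.0032), and the PMT call was lost without PMT High replicate 3 (adjusted p = 0.0616).

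**Figure D5:**
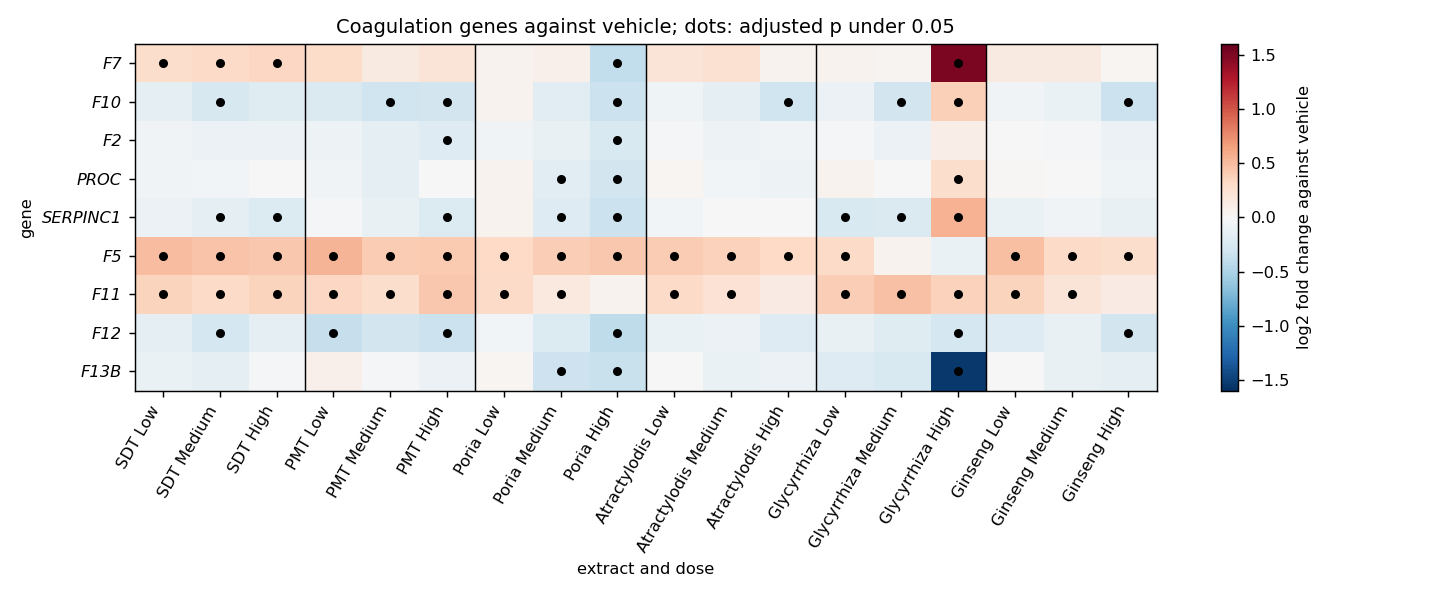
Log2 fold change against vehicle of the 9 tested genes (rows) for 6 extracts at 3 doses (columns), with dots for an adjusted p under 0.05. F5 and F11 are positive at Low in all 6 extracts, and Glycyrrhiza High holds the highest value of F7 and the lowest of F13B (-1.55).

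Angelica and Paeonia had 1 library per dose, so their values have no replicate check and no test. In Paeonia, F13B was at 4.51 CPM at Low, 4.18 at Medium and 1.66 at High, a log2 ratio of -1.40 for High to Low, and the High value lies within the 1.14 to 1.83 CPM of Glycyrrhiza High. It was the single member of the 9 past 1.5-fold, where 18.3% of all genes were. F7 was at 23.5, 21.0 and 25.1 CPM over the same doses. In Angelica no member passed 1.5-fold between High and Low, where 9.12% of all genes did.

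The members did not move as 1 block across the 19 replicated groups. Over group means of log2 CPM, F7 went with SERPINC1 (Pearson r = 0.82), PROC (0.76) and F10 (0.71) and against F13B (-0.75), while F11 was at 0.06 with SERPINC1. Outside the list, the genes most like F7 were ZFP90 (r = 0.962), NUPR1 (0.959) and SLC47A1 (0.958). Those most like F13B were SERPINA7 (0.983), LGR5 (0.978) and ENPP2 (0.976), and most like SERPINC1 were CYP4F3 (0.969), DHTKD1 (0.941) and ZSCAN25 (0.930). PROC was most like ZNF517 (0.955), F10 like SPIRE2 (0.935), F5 like PCGF5 (0.937), F2 like HIC2 (0.907), F12 like STK11 (0.880) and F11 like ENSG00000267002 (0.851). These are descriptions over 19 groups that share 1 scaling. For F7, F10, PROC, SERPINC1 and F13B they also share 1 extreme group, since Glycyrrhiza High lay outside all 51 other replicated libraries.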

How the data were processed

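Per the labels' protocols, messenger RNA libraries were made with the MGIEasy directional kit from RNA with an integrity number above 7 and sequenced in paired reads on an MGIseq instrument. Per the submitters' processing notes, FastQC 0.11.9, Trim Galore 0.6.5, STAR 2.7.3a and RSEM 1.3.3 were used with GRCh38; the annotation release and strand setting are not given in the sources used here. The authors deposited expected counts per gene without normalisation, 60675 genes by 270 columns, of which 60 were used and 210 were not. At a tolerance of 0.005, 23.4% of nonzero entries were not whole. Symbols came from a gene name table (56558 identifiers matched) and coordinates from GENCODE 29 (57055 matched).

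Expected counts were rounded. The filter filterByExpr left 16284 genes, TMM gave the library scaling, and tests used edgeR 4.0.16 (quasi-likelihood, Benjamini-Hochberg adjustment at 0.05) in R 4.3.3, in 1 model of 54 libraries and 19 groups with 31 comparisons; SE is the log2 fold change divided by the square root of F. CPM levels use TMM-scaled library sizes, with a prior count of 2 for log2 CPM. No pair of replicates agreed within sampling noise. Alternatives were RLE size factors, no filter, DESeq2 1.42.0, fits of only the groups compared, a replicate block, no mitochondrial genes and leaving out each library. The pipeline was tested on simulated data. All 10 members are named. From each other list mainly called genes with large changes are named, but not by a fixed rule. Others, such as KLKB1, GGCX, PLG and HNF4A, were added. For each member the 3 genes of most similar pattern were found, of which some are printed. The members and lists were chosen with earlier results of these data known. Intervals and floors cover counting error only. The wortmannin control named in the series text was not analysed here. Of the fibrinolysis list, 1 of 7 genes is not reported here.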

Additional observations from a re-analysis of the deposited data

Results flagged for a closer look

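The change from Low to High differed between Glycyrrhiza and Poria for 8 of the 9 members tested, by a test of the difference itself in the model of all 54 libraries (edgeR's quasi-likelihood test, adjusted over all genes), where 45.6% of all genes were called. On the log2 scale, as the Glycyrrhiza change minus the Poria change, the difference was 1.89 for F7, 1.20 for SERPINC1, 0.88 for F10, 0.59 for PROC, 0.30 for F2 and 0.24 for F11. It was -0.94 for F13B and -0.52 for F5. The adjusted p-values ran from 3.57e-18 (SERPINC1) to 0.0248 (F11). For F11 the difference lost its call without Poria High replicate 1 (0.21, adjusted p = 0.0624), Poria Low replicate 2 (0.20, adjusted p = 0.0747) or Glycyrrhiza High replicate 3 (0.21, adjusted p = 0.0624), and for F2 without Poria Low replicate 3 (0.21, adjusted p = 0.0518).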

How the results depend on the processing

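Under 6 alternatives and 54 fits that left out 1 library each, none of the 107 member calls changed sign. RLE size factors lost 0 calls, the replicate block 1, leaving out the mitochondrial genome 1, DESeq2 5, no filter on low counts 8 and fits of only the groups compared 13; leaving out a library lost 86 of 678. The count of members called in Atractylodis High against Low went from 0 to 1 with no filter, with DESeq2 and with the replicate block. Within a set code, same-numbered libraries had a mean r of their deviations of 0.021, with 14 of 123 pairs over 0.1, against -0.011 and 4 of 240 pairs for different numbers, and 23 of 51 libraries were closest to their own number. Since most same-numbered pairs were not over 0.1 and no label gives a pairing, the samples were taken to share only a number. The replicate block lost only F13B in Poria Medium against Low (adjusted p = 0.0507). Fitting only the groups compared gave 1 in place of 2 in Poria Low against vehicle, 1 in place of 4 in Poria Medium against Low and 2 in place of 1 in Glycyrrhiza Medium against Low; F2 (adjusted p = 0.111) and F13B (0.0629) then lost their calls in Poria High against Low.

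With 1 library left out, the count ran from 2 to 5 in Poria Medium against vehicle (3 without vehicle replicate 1 or 2, 2 without Poria Medium replicate 2), from 1 to 2 in Ginseng Medium against vehicle (1 without vehicle replicate 1 or 2 or Ginseng Medium replicate 1 or 2), from 3 to 6 in PMT High against vehicle (3 without vehicle replicate 2 or PMT High replicate 2), from 1 to 3 in Atractylodis Medium against vehicle (1 without Atractylodis Medium replicate 3) and from 2 to 4 in Poria against Atractylodis at High (2 without Poria High replicate 3 or Atractylodis High replicate 3). It ran from 1 to 3 in Poria Medium against Low (1 without Poria Low replicate 3), from 0 to 1 in Atractylodis High against Low, from 0 to 0 in Glycyrrhiza Medium against Low and from 0 to 2 in Ginseng High against Low; 6 members stayed called in each such fit of Glycyrrhiza High against Low, and 7 to 8 in Poria High against Low. Where PMT was left with 1 library, it was assumed to vary like the other groups. The cause of these shifts was not tested. No group had 4 to 10 libraries, so single libraries were not screened as outliers. Depth limits F9, F12 and F13B most: F13B rests on 34 to 145 counts per library and F12 on 80 to 212.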
